A study of Sus scrofa with 12 samples.

Results

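The response of pig blood cells to Salmonella was described from the 4 libraries treated with Salmonella and the 4 untreated control libraries of a series of 12, over all 7480 genes of the deposited table. The members are the columns that the labels name as control or as Salmonella, and the 4 libraries that also had a miR-124 sponge, a synthetic oligonucleotide that binds a microRNA, were left out. The samples are peripheral blood mononuclear cells (PBMC, the lymphocytes and monocytes of blood) of crossbred Duroc x Landrace x Yorkshire piglets. According to the series text, 20 piglets aged 4 weeks, 10 male and 10 female, were in the design, and cells were taken at 12 h after treatment. Control libraries are labelled as not treated and Salmonella libraries as treated with Salmonella, which the series text names as Salmonella Typhi. The labels give no dose, do not say whether bacteria were given to the animals or to the cells, and do not tie a library to an animal. The p-values thus rest on how much these libraries vary, and that variation may be technical.

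Salmonella is a Gram-negative bacterium that survives inside phagocytes. Its lipopolysaccharide is bound by the receptor TLR4 with its partner LY96, and the adaptors downstream lead on one side to NF-kB and inflammatory cytokines, and on the other to interferon regulatory factors, type I interferon and the genes that interferon induces. Interferon gamma from T and NK cells drives a partly shared set of genes in monocytes, such as guanylate binding proteins, antigen-presenting molecules and the ligand PD-L1.

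The deposited values are 1 number per gene and library on a scale taken as log2, so that a difference of 1 is 2-fold, and every level and difference below is in these log2 units. They ran from 2.134 to 15.006 in the 8 libraries, and 0 of them were 0. The median of a library was 5.107 to 5.188 in control and 5.195 to 5.267 in Salmonella libraries. The depth behind the values is unknown, since no counts were used. A set of 185 genes of nose, hair, taste and testis, such as olfactory receptors, was taken as silent in blood. Its mean was 4.643 and its 95th percentile 5.253, and values under this percentile are called background here. Differences of genes near it may be compressed, but it is not a floor, since values ran down to 2.134. Any 2 of the 8 columns shared 22.7% to 24.2% of their values exactly, and the pig gene tables used here lack 334 of the 7480 symbols (4.47%). Of the 185 silent genes only 53 are in those tables, so background rests mostly on symbols that the tables lack. What these features mean for the values and for background was not tested.

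Samples of a group resembled each other more than those of the other group. Correlations across genes ran from 0.965 to 0.987 among control libraries, from 0.953 to 0.986 among Salmonella libraries and from 0.857 to 0.924 between them. On a principal component analysis of the 8 libraries the first axis, with 67.8% of the variance, separated the groups. The second held 14.4% and set control replicate 3 (-21.7) and Salmonella replicate 1 (-28.4) apart at its low end from Salmonella replicate 4 (21.8) at its high end. Of the 30 genes with the largest weight on it, 21 pointed to the end of those 2 libraries and 9 to the other end, the latter with ANKRD22, CXCL10, IFIT3, RTP4, GBP6 and ASPRV1, which were all called higher with Salmonella. IFIT3 was lowest of its group in both of those libraries, at 3.69 in control replicate 3 and 11.24 in Salmonella replicate 1. Of the first kind, 3 are given here that stood high there. RAD21, a subunit of the cohesin ring that holds DNA, was at 4.23, 5.43, 6.69 and 4.51 in control replicates 1 to 4 and at 8.75, 6.47, 7.29 and 5.0 in Salmonella replicates 1 to 4. SUMO2, which encodes a small protein tag, was at 4.11, 5.41, 7.25 and 4.36 and at 9.84, 7.09, 7.31 and 6.40, and RPL23, a ribosomal protein gene, at 7.25, 9.29, 10.16 and 7.66 and at 11.26, 9.15, 9.91 and 8.30. For each of these 3 genes control replicate 3 was the highest control library and Salmonella replicate 1 the highest Salmonella library, the groups overlapped and the test was not passed. Counts are therefore also given without both libraries.

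A gene was called where its adjusted p from limma's moderated test (Benjamini-Hochberg, across the 7480 genes) was below 0.05. That held for 2568 genes (34.3%). With Salmonella, 1186 of them were higher (15.9%) and 1382 lower (18.5%), and these shares are the background for every list below. Without control replicate 3 and Salmonella replicate 1, 1160 were higher and 1155 lower, and 2066 genes were called in both fits in the same direction. The median difference over all genes was -0.016. With each library centred on its median, 970 were higher and 1862 lower, which made rises 34.3% of the calls in place of 46.2%. Differences of at least 1 were called for 1045 genes (14%), 570 higher and 475 lower. Rises reached further than falls, since 167 rises but 45 falls were of at least 2, and 25 rises but 1 fall of at least 4. Library medians of 5.107 to 5.267 lie near the silent mean of 4.643, which may leave many genes little room to fall, though single values reached 2.134. The part of this in the unequal reach was not tested. The groups did not overlap for 2661 genes (35.6%), and 309 called genes had groups that overlapped. The main rules for naming called genes below required groups that did not overlap. For genes named by those rules, a lack of overlap follows from the choice and is no separate result.

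Of 3412 genes with both group means under background, 18.2% were called, and of 3227 genes above it in both groups 44.6%. These shares leave out 841 genes with a mean on each side, a class that the difference itself sets. In the silent set itself 9 genes were higher and 17 lower (14.1%), so a call on a gene at background carries little. What this share means for calls above background, and for the counts over all genes and lists, was not tested.

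**Figure D1:**
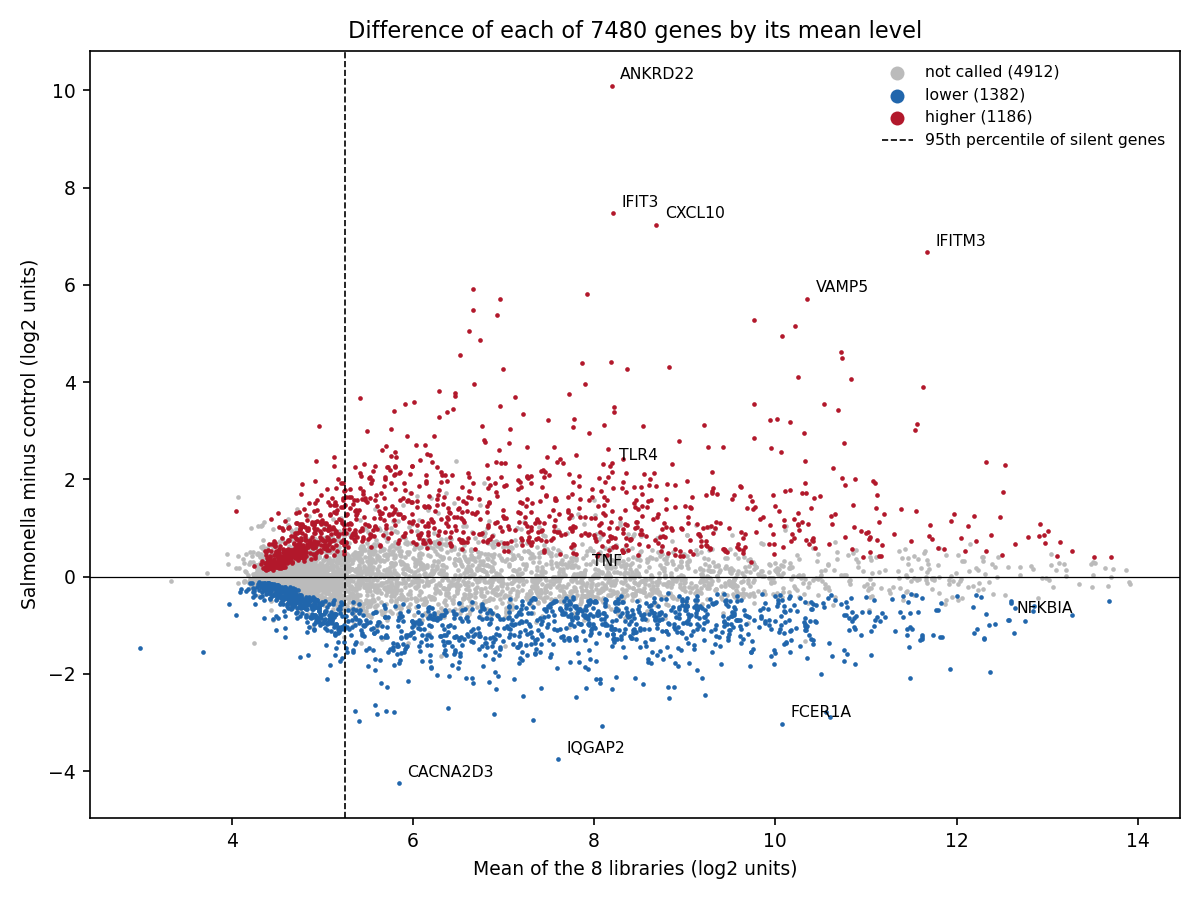
Difference between the group means (Salmonella minus control, log2 units) against the mean of the 8 libraries (log2 units) for each of 7480 genes, with called genes in red (1186 higher) and blue (1382 lower), genes not called in grey, and a dashed line at 5.253, the 95th percentile of silent genes. Rises spread up to 10.10 (ANKRD22), falls down to -4.25 (CACNA2D3), and most genes left of the line are close to 0.

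The rises with the largest size among genes that held in every fit without 1 library were led by ANKRD22, which encodes an ankyrin repeat protein. It was at 2.98, 3.08, 2.98 and 3.55 in control replicates 1 to 4 and at 12.11, 13.61, 13.35 and 13.92 in Salmonella replicates 1 to 4, a move from background to among the highest values of the table (10.10 ± 0.35, adjusted p = 4.7e-07). In control replicates 1 to 3 these were the lowest values of their libraries, under the silent mean of 4.643. The size of this rise thus depends on the floor of the table. The antiviral gene IFIT3 was at 4.10, 4.15, 3.69 and 5.99 and at 11.24, 11.75, 12.24 and 12.56 (7.47 ± 0.48, adjusted p = 9.9e-06), with control replicate 4 above the other controls. Both lie on chromosome 14 in Sscrofa11.1, ANKRD22 at 100747955 to 100772412 and IFIT3 at 101214730 to 101225169. CXCL10, a chemokine that attracts T cells, was at 5.87, 5.07, 3.85 and 5.48 and at 12.26, 12.20, 11.08 and 13.69 (7.24 ± 0.56, adjusted p = 3.4e-05). The groups of all 3 genes were apart by more than 5 units at their nearest values.

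IFITM3, a membrane protein that restricts viral entry, was at 8.05, 8.64, 8.02 and 8.64 in control libraries and at 15.006, the highest value of the column, in each of the 4 Salmonella libraries, so its difference (6.67 ± 0.17, adjusted p = 3.8e-08) is capped. The tied values give the Salmonella group an SD of 0, so the SE and adjusted p of this gene understate its spread. BATF2, a transcription factor of interferon-activated macrophages, was at 3.97, 3.58, 3.47 and 3.78 and at 8.80, 9.82, 9.72 and 10.13 (5.92 ± 0.28, adjusted p = 2.2e-06). SLAMF8, a receptor of the SLAM family on myeloid cells, was at 4.35, 4.12, 3.80 and 4.19 and at 9.15, 10.20, 9.87 and 10.07 (5.71 ± 0.25, adjusted p = 1.3e-06). In both, Salmonella replicate 1 was the lowest of the 4 treated libraries, and it was also the lowest for ANKRD22, IFIT3, P2RY14, VAMP5, GBP6, SLC6A12, ASPRV1 and SOCS1.

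VAMP5, a vesicle fusion protein, was at 7.85, 6.77, 7.62 and 7.75 and at 12.64, 13.75, 13.18 and 13.28 (5.72 ± 0.28, adjusted p = 2.3e-06). TNFAIP6, a secreted hyaluronan-binding protein induced in inflammation, was at 6.27, 7.52, 6.72 and 8.02 and at 12.45, 12.09, 12.34 and 12.75 (5.27 ± 0.34, adjusted p = 1.1e-05). LAP3, a leucine aminopeptidase, was at 7.47, 7.45, 7.57 and 7.91 and at 12.48, 12.18, 12.16 and 13.39 (4.95 ± 0.26, adjusted p = 3.5e-06). These 3 genes were above background in every control library, so their sizes do not rest on values at background. The other rises of the 15 were P2RY14 (5.81), a receptor for UDP-glucose, GBP6 (5.49) and GBP4 (5.15), guanylate binding proteins, SLC6A12 (5.37), a betaine and GABA transporter, ASPRV1 (5.06), an aspartic protease, and SOCS1 (4.87), an inhibitor of JAK kinases. Control means of these 6 genes were 5.01, 3.92, 7.65, 4.24, 4.09 and 4.30, so that of GBP4 alone was above background.

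The falls with the largest size were led by CACNA2D3, a subunit of voltage-gated calcium channels, at 8.46, 7.96, 7.17 and 8.28 in control and 4.64, 2.60, 3.28 and 4.36 in Salmonella replicates 1 to 4 (-4.25 ± 0.47, adjusted p = 2.1e-04). All Salmonella values were under background. The scaffold gene IQGAP2 was at 9.81, 9.18, 9.48 and 9.46 and at 5.59, 5.96, 5.34 and 6.0 (-3.76 ± 0.20, adjusted p = 4.0e-06), and stayed above background. PI3, which encodes the elastase inhibitor elafin, was at 9.12, 10.24, 9.01 and 10.14 and at 7.69, 5.28, 6.75 and 6.48 (-3.08 ± 0.48, adjusted p = 0.00146), with Salmonella replicate 1 the highest of the treated libraries. Groups without overlap were a condition for naming these falls.

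NLRP12, a sensor protein of myeloid cells known to restrain inflammatory signalling, was at 7.97, 8.46, 8.03 and 8.80 and at 5.12, 5.71, 5.44 and 5.68 (-2.83 ± 0.23, adjusted p = 4.7e-05). TPST1, which adds sulfate to tyrosines of proteins, was at 6.95, 5.90, 6.96 and 7.81 and at 3.62, 4.60, 3.83 and 5.02 (-2.64 ± 0.43, adjusted p = 0.00186). PHACTR1, a regulator of phosphatase 1 and actin, was at 7.21, 7.39, 6.08 and 7.65 and at 4.30, 4.10, 4.74 and 4.14 (-2.76 ± 0.34, adjusted p = 3.7e-04). For TPST1 and PHACTR1 the highest Salmonella value was under background. The other falls of the 15 were FCER1A (-3.02) of the IgE receptor, OSBPL10 (-2.98), an oxysterol-binding protein, OLIG1 (-2.94), a transcription factor, GZMK (-2.89), a granzyme, ALOX15 (-2.82), a lipoxygenase, SPNS3 (-2.80), a putative lipid transporter, CD79A (-2.78) of the B cell receptor, RPS6KA2 (-2.76), a ribosomal S6 kinase, and TMEM14A (-2.70), a transmembrane protein.

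**Figure D2:**
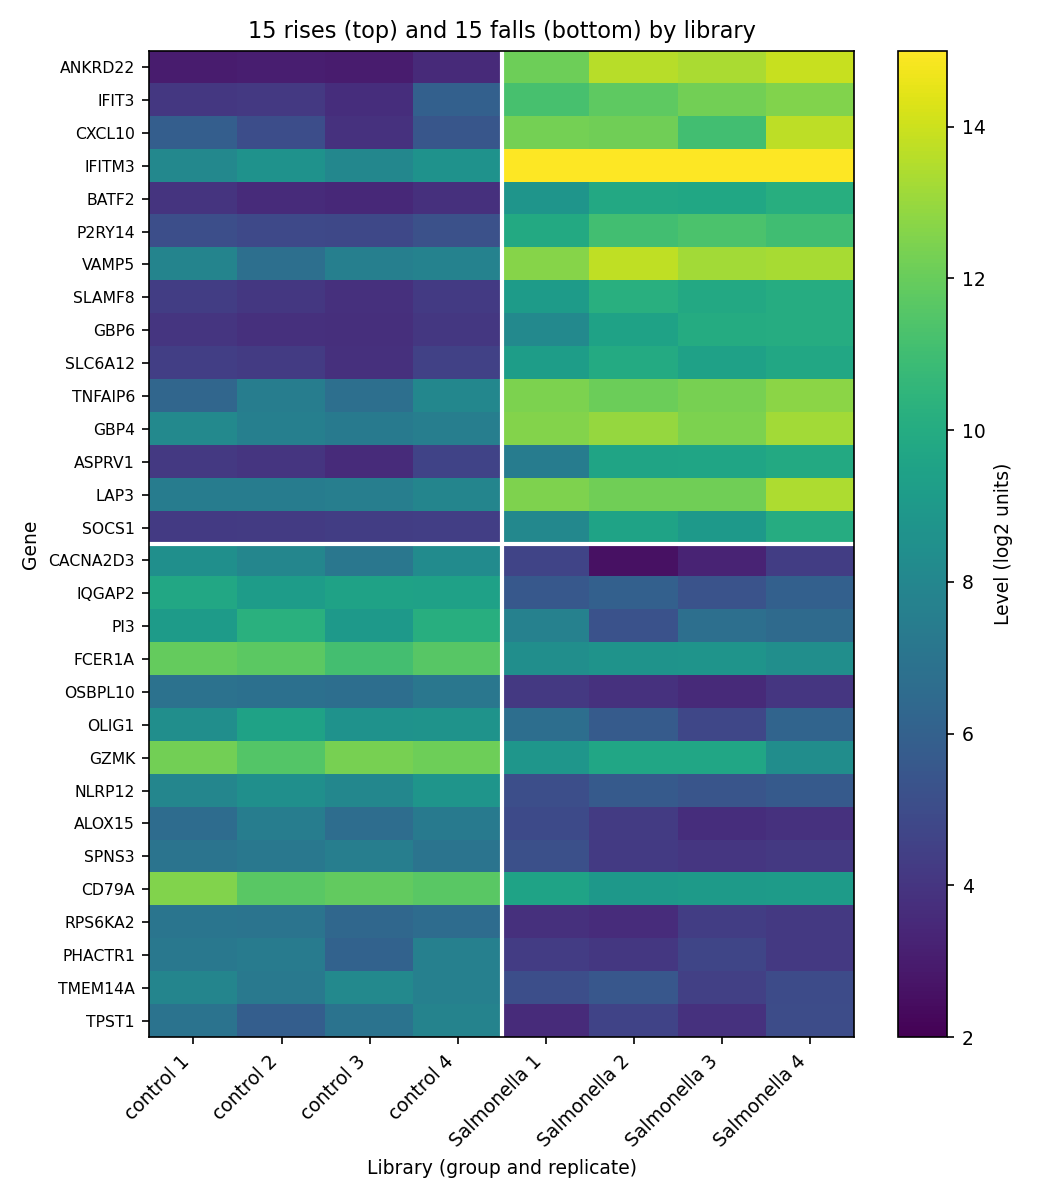
Level (log2 units, colour) in each of the 8 libraries of the 15 largest rises (above the white line) and the 15 largest falls (below it) among genes whose groups did not overlap and whose call held in every fit without 1 library. Each row changes colour at the border between control and Salmonella replicates, and IFITM3 is at 15.006 in all 4 Salmonella libraries.

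TLR4 and its partners LY96 and TICAM2 in endotoxin sensing were higher, while LBP, which carries lipopolysaccharide in plasma, was at background and not called. TLR4 (chromosome 1, 258044610 to 258054641) was at 6.80, 7.15, 6.92 and 7.31 in control and at 8.92, 9.30, 9.25 and 9.78 in Salmonella replicates 1 to 4 (2.27 ± 0.20, adjusted p = 7.2e-05). LY96, the protein that holds lipopolysaccharide on TLR4, was at 9.90, 9.91, 9.82 and 10.75 and at 11.83, 11.82, 12.46 and 12.10 (1.96 ± 0.23, adjusted p = 3.0e-04). TICAM2, the adaptor that links TLR4 to the interferon branch, was at 8.76, 8.38, 7.95 and 8.50 and at 9.76, 10.32, 9.95 and 10.24 (1.67 ± 0.20, adjusted p = 3.2e-04). The groups did not overlap for any of the 3, and each Salmonella value was above each control value. In bulk libraries like these, a lower level from fewer cells of a type and from less RNA per cell cannot be told apart, and neither can a higher level from more cells or more RNA per cell. CD14 and MYD88 of the same pathway were not analysed here.

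Of the receptors for bacterial products, 15 of 36 listed genes were measured, and 7 were higher, 3 lower and 5 not called (median 0.70). Beside TLR4 and LY96, the rises included CLEC7A (2.74), a receptor for fungal glucans, TLR7 (2.31) and TLR8 (1.71), receptors for single-stranded RNA. Against them NLRP12 (-2.83) and PGLYRP2 (-1.19), an enzyme that cleaves peptidoglycan, were lower. TLR9, a receptor for bacterial DNA, was called lower (-0.73), but the call ended when control replicate 1 or 4 or Salmonella replicate 1, 2 or 4 was left out (largest adjusted p = 0.0616). NLRP3, the sensor of an inflammasome, was at 8.84 ± 0.04 in the control and 9.07 ± 0.12 in the Salmonella group (SD, n = 4), which was not called, and neither were PGLYRP1 (-0.26), TLR3 (0.07) and LBP (-0.05), the last 2 at background. The cytosolic sensors of nucleic acids, of which 5 of 19 were measured, gave rises in IFIH1 (3.12), ZBP1 (2.84) and DDX60 (2.33) and no call in LRRFIP1 (0.12) and DDX41 (-0.36) (median 2.33).

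Genes of the NF-kB pathway were called about as often as all genes, 33.3% beside 34.3%. NFKBIA, the inhibitor that holds NF-kB in the cytoplasm and is itself an NF-kB target, was lower, at 13.15, 12.99, 12.86 and 13.07 and at 11.87, 12.21, 12.44 and 11.998 (-0.89 ± 0.14, adjusted p = 0.0016), with no overlap. Of 12 of 41 listed genes measured, 3 were higher, 1 lower and 8 not called (median -0.12), and 1 higher when Salmonella replicate 3 was left out. Not called were NFKB1 (0.11), IRAK1 (-0.12), TRAF6 (-0.13) and TOLLIP (-0.19), all with overlapping groups. RIPK2, the kinase that signals from the peptidoglycan sensors NOD1 and NOD2, rose by 1.82 from 8.40 to 10.22.

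The acute cytokines TNF and IL6 were not called. TNF was at 8.26, 8.02, 7.63 and 7.45 in control and at 7.86, 8.36, 7.41 and 8.12 in Salmonella replicates 1 to 4 (0.09 ± 0.25, adjusted p = 0.793), and its groups overlapped. IL6 was at background in both groups (5.12 ± 0.26 in the control and 5.16 ± 0.42 in the Salmonella group; SD, n = 4), as was IL12B at 4.30 and 4.28. IL1B was higher, at 7.87, 8.07, 7.28 and 8.74 and at 8.89, 9.86, 10.005 and 9.63 (1.60 ± 0.33, adjusted p = 0.00529), with control replicate 4 and Salmonella replicate 1 only a little apart. Interferon gamma itself (IFNG) was at 5.50, 5.55, 6.24 and 5.51 and at 4.80, 6.25, 4.46 and 4.97, which was not called (adjusted p = 0.248), and IFNB1 stayed at background, at 4.41, 4.41, 4.43 and 4.45 and at 4.27, 4.38, 4.43 and 4.31. Neither of these 2 interferon genes passed the test.

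Of 30 of 56 listed cytokines measured, 6 were higher, 4 lower and 20 not called (median 0.09), 18 of the 30 had both means at background, and with each library centred on its median the counts turned to 5 higher and 6 lower. Among genes with a mean at or above background 3 were higher and 0 lower, and without control replicate 3 and Salmonella replicate 1 there were 2 lower. Rises above background were TGFA (2.06) and HBEGF (0.89), ligands of the EGF receptor, and IL1B (1.60). IL27 (1.32), a cytokine of activated myeloid cells, rose from background, with its highest control value at 4.74. The 4 called lower, IL5, IL1A, IL21 and IL17A, were at background in both groups, as was IL12A, called higher, and LIF was not called (0.12). Of the measured cytokines 33.3% were called, beside 34.3% of all genes. The chemokines, of which 20 of 49 were measured, gave 6 rises and 2 falls (median 0.31), and 3 rises and 0 falls among genes with a mean at or above background. CXCL9, another ligand of the receptor that CXCL10 binds, was at 4.26, 4.04, 4.11 and 4.31 and at 5.73, 5.98, 5.55 and 7.45 (2.0 ± 0.37, adjusted p = 0.00329). CCL8 (1.76), CXCL11 (0.97) and PPBP (1.13), the chemokine of platelet granules, were also higher, while CXCL6 (-1.18) and CCL21 (-1.19) were lower, both down to background. CXCL2, called higher, and CXCL14, XCL1, CCL11 and CCL1, which were not called, were at background.

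**Figure D3:**
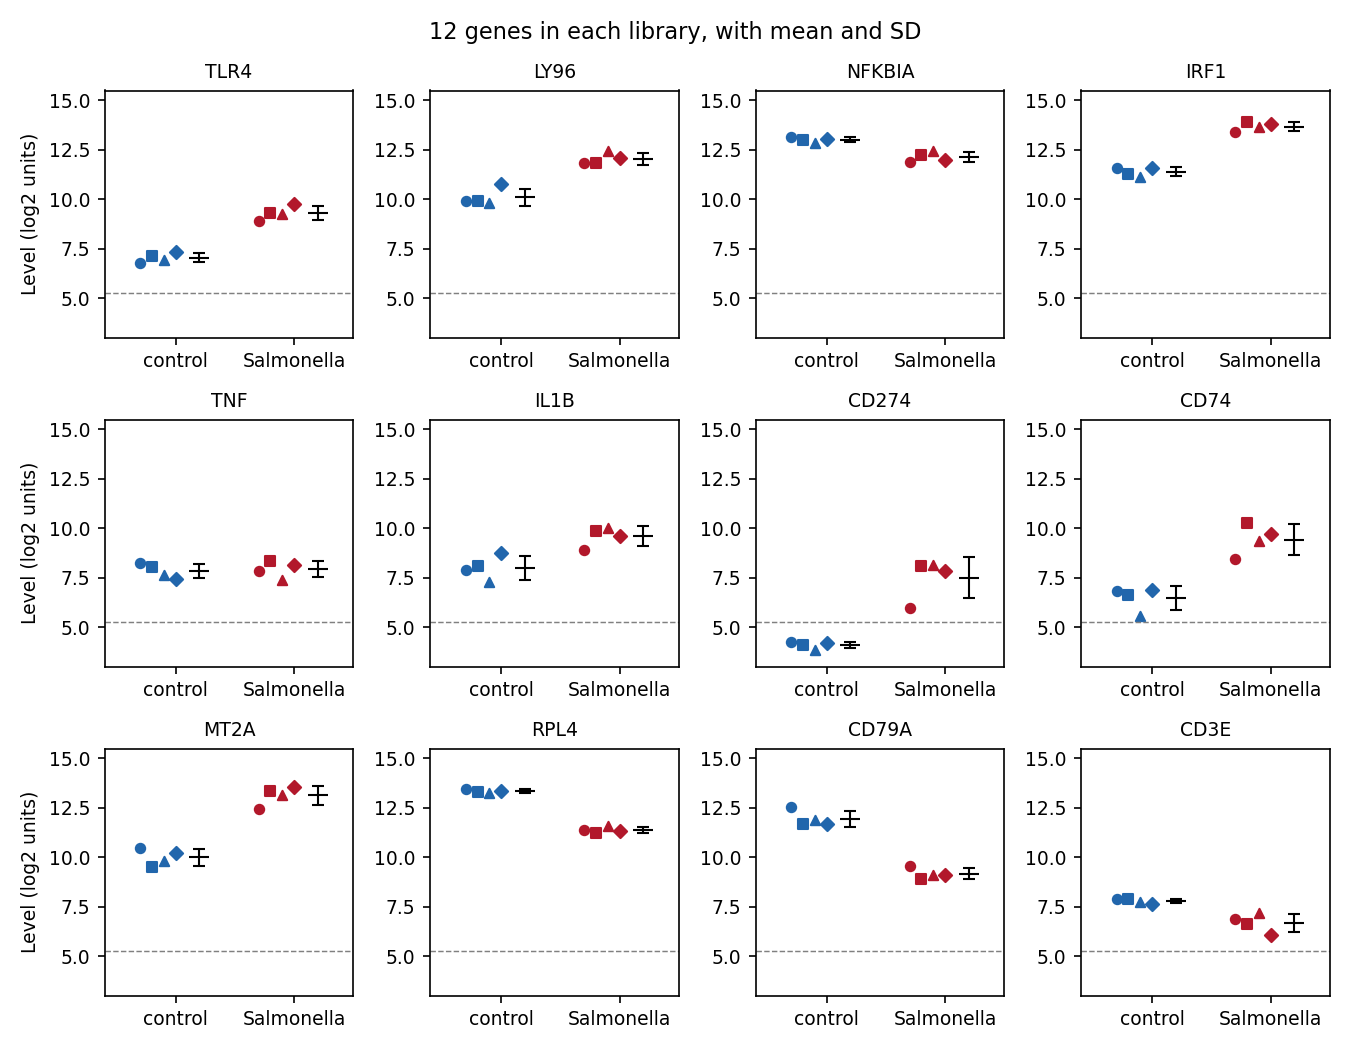
Level (log2 units) of 12 genes in the control (blue) and Salmonella (red) libraries, with a circle, square, triangle and diamond for replicates 1 to 4, a bar and whiskers for mean and SD, and a dashed line at 5.253, the 95th percentile of silent genes. TLR4, LY96, IRF1, IL1B, CD274, CD74 and MT2A are higher in every Salmonella library, NFKBIA, RPL4, CD79A and CD3E lower, and TNF overlaps.

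Most measured antiviral effectors of the interferon response rose, and some of its transcription factors. IRF1, a transcription factor induced by interferon gamma, was at 11.56, 11.30, 11.10 and 11.58 and at 13.38, 13.88, 13.66 and 13.78 (2.29 ± 0.15, adjusted p = 1.2e-05), which was near the top of the table in Salmonella libraries. Of the interferon regulatory and partner factors, 9 of 18 were measured and 4 were higher and 0 lower (median 0.33), among them BATF2 and SPI1 (1.93), the PU.1 factor of myeloid cells. IRF8, which pairs with both, was not called (-0.43 ± 0.16, adjusted p = 0.0594), nor was IRF4 (0.33), and SPIB and IRF2BP1 were at background. Of the antiviral effectors, 24 of 48 were measured and 22 were higher, 0 lower and 2 not called (median 3.17). OAS2, which makes the activator of RNase L, was at 4.18, 4.05, 4.51 and 4.24 and at 8.37, 8.64, 9.27 and 8.94 (4.56 ± 0.23, adjusted p = 2.3e-06). IFI6, an antiviral membrane protein, was at 8.48, 8.22, 7.84 and 9.13 and at 12.60, 12.93, 13.02 and 13.59 (4.62 ± 0.29, adjusted p = 8.3e-06). Others of the list were PARP9 (4.38) and PARP14 (3.54), which attach ADP-ribose, IFIT2 (3.91), IFI35 (2.94) and SAMD9 (1.84). The members not called were N4BP1 (-0.28) and HERC6 (0.50). Free ubiquitin-like ISG15 is attached by other enzymes of the response, of which 5 of 9 were measured: HERC5 (3.55), the ligase, UBA7 (0.87), the activating enzyme, and USP18 (1.62), the protease that removes it, were higher.

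Guanylate binding proteins attack the vacuoles and membranes of intracellular bacteria. GBP4 was at 8.13, 7.61, 7.29 and 7.57 and at 12.57, 12.97, 12.42 and 13.22 (5.15 ± 0.22, adjusted p = 1.3e-06), with no overlap. Of this list of immunity GTPases 5 of 14 were measured, 4 were higher and 0 lower (median 1.90), also GBP6 (5.49), GBP3 (1.90) and MX2 (1.38), while ATL3 (0.48) was not called. The symbols of GBP3, GBP4 and GBP6 are among those that the pig tables lack, and reads of 50 bases may be shared between near-identical GBP genes, so the split between them is uncertain. SOCS1 and SOCS3, inhibitors of the JAK kinases, were higher as well. SOCS1 was at 4.20, 4.23, 4.37 and 4.40 in control and at 8.05, 9.55, 9.05 and 10.03 in Salmonella libraries (4.87 ± 0.37, adjusted p = 2.9e-05). Of the JAK-STAT list, 19 of 36 were measured and 10 were higher, 1 lower and 8 not called (median 0.41), with SOCS3 (2.25), STAT3 (1.82), IL6R (1.68), STAT6 (1.02) and IFNGR2 (1.03), a chain of the interferon gamma receptor. The 2 copies of STAT5 moved apart, since STAT5A (1.44) was higher from 8.34 to 9.77 and STAT5B (-0.78) lower from 8.05 to 7.28. STAT5B was the single member called lower, and there were 2 lower when control replicate 3 was left out. SOCS7 was called at background, and JAK1 (-0.15), PTPN1 (0.18), PIAS2 (0.24) and SOCS6 (-0.20) were not called.

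Immediate early genes, transcribed within minutes of a stimulus, gave 6 rises and 0 falls of 17 of 33 listed genes measured (median 0.33), but there were 3 higher when control replicate 3 or Salmonella replicate 2 was left out, and 1 lower when control replicate 3 or 4 was left out. DUSP5 (1.85) and DUSP6 (1.65), phosphatases of the ERK kinases, and JUNB (1.65) were higher. Not called were JUND (0.06), KLF2 (-0.08), KLF10 (-0.04) and NR4A2 (-0.19). Of the measured list 35.3% were called, all of them higher, beside 34.3% of all genes called and 15.9% called higher.

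Genes of antigen presentation went in both directions. CD74, the invariant chain that guides MHC class II, was at 6.83, 6.63, 5.56 and 6.85 and at 8.43, 10.24, 9.35 and 9.70 (2.96 ± 0.41, adjusted p = 7.2e-04), with control replicate 3 the lowest of all. CTSD, a lysosomal protease, was also higher (1.37 ± 0.23, adjusted p = 0.00213). In the same list of 8 of 33 measured, CD1E (-2.18), a lipid-presenting molecule of dendritic cells, and RFXAP (-0.79), a factor for class II promoters, were lower, HLA-DOA was called lower too (-0.79) but not when control replicate 1 or 3 or Salmonella replicate 2 or 3 was left out (largest adjusted p = 0.0627), and RFX5 (0.03), CD1A (0.04) and CTSH (-0.08) were not called (median -0.03). The pig gene tables lack the symbol HLA-DOA. Of the genes that make peptides for class I, 7 of 37 were measured and 4 were higher, 0 lower and 3 not called (median 0.76), with rises in the proteasome subunits PSMA3 (1.88), PSMA2 (1.38) and PSMB10 (0.86), the last a subunit of the immunoproteasome. PSMB2 (0.16) and ERAP2 (0.46) were not called, and PDIA3 was at background.

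Checkpoint and costimulatory molecules were called in both directions. CD274, which encodes PD-L1 (chromosome 1, 216646378 to 216792731), was at 4.24, 4.10, 3.85 and 4.18 and at 5.97, 8.07, 8.13 and 7.84 (3.41 ± 0.44, adjusted p = 5.4e-04), and Salmonella replicate 1 was the lowest treated library. PDCD1LG2, which encodes PD-L2, was at 4.35, 4.29, 4.29 and 4.26 and at 5.85, 6.70, 7.13 and 6.80 (2.32 ± 0.26, adjusted p = 2.5e-04). In the list of checkpoint and costimulatory molecules 20 of 62 were measured and 8 were higher, 6 lower and 6 not called (median 0.24). Higher were also SLAMF8 (5.71), LGALS9 (1.66), which encodes galectin-9, and the myeloid receptors LILRA5 (1.77), a symbol that the pig gene tables lack, and SIGLEC14 (1.29). Lower were CD2 (-1.63), CD244 (-2.04), SLAMF1 (-1.19) and ICOS (-1.19), receptors of T and NK cells, and CD80 (-0.63), while the call of PVR (-0.77) ended when control replicate 1, 2, 3 or 4 or Salmonella replicate 1, 2 or 3 was left out (largest adjusted p = 0.104). HAVCR2 (-0.04), SIGLEC5 (1.07) and CD300LB (-0.73) were not called, and TIMD4 was at background.

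In the TNF superfamily the death ligand TNFSF10 (TRAIL) was at 8.73, 8.68, 8.46 and 9.36 and at 12.60, 12.64, 12.74 and 13.46 (4.06 ± 0.24, adjusted p = 6.6e-06). Of 18 of 45 listed genes measured, 3 were higher, 7 lower and 8 not called (median -0.19). CD40, a receptor on antigen-presenting cells, rose by 1.86, and TNFRSF1B was called higher (0.52) but not when control replicate 1 or 3 or Salmonella replicate 2, 3 or 4 was left out (largest adjusted p = 0.0926). The counterpart of CD40 on T cells, CD40LG (-1.57), was lower, as were CD27 (-2.08) and TNFRSF21 (-2.15). The receptors for B cell survival factors TNFRSF13C (-1.61) and TNFRSF17 (-2.29) were lower too. FASLG (-0.19) and TNFSF9 (-0.21) were not called, and TNFSF18 was at background.

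Some phagocyte genes rose, while 35% of the measured list was called, beside 34.3% of all genes. NCF1, a cytosolic subunit of the NADPH oxidase that makes superoxide, was at 9.55, 10.46, 9.66 and 10.47 and at 12.78, 13.22, 13.04 and 13.12 (3.01 ± 0.23, adjusted p = 3.2e-05). CYBB, the catalytic subunit, was at 8.67, 9.23, 8.62 and 8.60 and at 11.53, 11.37, 11.24 and 11.22 (2.56 ± 0.16, adjusted p = 9.9e-06). S100A12, a calcium-binding protein of neutrophils and monocytes, was at 4.91, 7.25, 7.83 and 6.13 and at 10.59, 9.45, 10.55 and 9.03 (3.37 ± 0.61, adjusted p = 0.00296). The groups of the 3 genes did not overlap. Of 20 of 41 listed genes measured, 5 were higher, 2 lower and 13 not called (median 0.15), also LYZ (2.03), which encodes lysozyme, and CYBA (0.67). PI3 (-3.08) and RNASE6 (-1.78) were lower. The granule genes MMP9 (0.03), LCN2 (-0.08) and OLFM4 (0.19) were not called, and neither was S100A9 (-0.01), which was at 13.68, 13.83, 13.66 and 13.68 and at 13.69, 13.69, 13.75 and 13.68.

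Opsonin receptors and complement genes also split. C1QC, a chain of the complement protein C1q made by macrophages, was at 4.24, 4.24, 4.15 and 4.25 and at 6.97, 8.92, 7.58 and 7.77 (3.59 ± 0.36, adjusted p = 1.3e-04), a move from background to above it in each library. C3AR1, the receptor for the complement fragment C3a, was at 7.12, 7.58, 6.53 and 7.25 and at 9.34, 8.93, 9.54 and 8.90 (2.06 ± 0.24, adjusted p = 3.2e-04). Of 15 of 38 listed genes measured, 6 were higher, 3 lower and 6 not called (median 0.02), with rises in C5 (1.09), CFP (0.99), which encodes properdin, and FCN1 (0.39), a ficolin of monocytes. CD93 (-0.74) and CR2 (-1.14), the complement receptor of B cells, were called lower, but CD93 not when control replicate 4 or Salmonella replicate 2 was left out (largest adjusted p = 0.0535) and CR2 not when control replicate 1, 2 or 3 or Salmonella replicate 2, 3 or 4 was left out (largest adjusted p = 0.103). CFD was not called (0.36), and MASP2, C7, MBL2 and MASP1 were at background. Among 4 of 24 listed Fc receptor genes measured, FCER1G (1.74), the signalling chain, and FCGR2B (1.33), the inhibitory IgG receptor, were higher, FCER1A was lower, and PIGR was at background (median 0.69).

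Receptors that guide cell movement changed in both directions. CCR2, the receptor of classical monocytes for CCL2, was at 4.48, 5.77, 5.23 and 5.37 and at 7.65, 8.23, 8.97 and 8.41 (3.10 ± 0.34, adjusted p = 1.9e-04). CCRL2, a receptor that binds chemerin, was at 4.49, 4.59, 4.46 and 4.78 and at 7.46, 8.80, 8.29 and 8.89 (3.78 ± 0.30, adjusted p = 4.3e-05). CXCR5, which brings B cells to follicles, was at 9.77, 8.71, 8.83 and 8.84 and at 6.76, 6.28, 6.74 and 6.49 (-2.47 ± 0.25, adjusted p = 1.2e-04). The first 2 genes were higher and the third lower in every Salmonella library than in any control library. Of 18 of 40 listed receptors measured, 8 were higher, 5 lower and 5 not called (median 0.05), with 3 lower when Salmonella replicate 2 was left out. Higher were also P2RY14 (5.81), P2RY13 (3.34), CCR1 (1.76) and CX3CR1 (1.57), and lower P2RY8 (-1.80) and CCR7 (-1.80), the lymph node homing receptor. The calls of CCR4 (-1.10) and CCR9 (-1.37) ended, for CCR4 when control replicate 2 or 4 or Salmonella replicate 2 or 4 was left out (largest adjusted p = 0.0623), and for CCR9 when control replicate 1 or 2 or Salmonella replicate 2 or 3 was left out (largest adjusted p = 0.0701). XCR1, GPR183, CCR8 and CCR10 were at background and not called.

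Cytokine receptors gave 5 rises and 4 falls of 24 of 52 listed genes measured (median 0.08), with 3 higher when control replicate 1 was left out, and 4 higher and 7 lower after centring. IL6R (1.68), CSF2RB (1.57), the shared chain for GM-CSF, and EPOR (0.75) were higher. IL1R2 (-2.26), the decoy receptor for interleukin 1, IL2RB (-1.52) and IL5RA (-1.77) were lower, and the call of IL10RA (-0.37) ended when control replicate 1, 2, 3 or 4 or Salmonella replicate 1, 2 or 3 was left out (largest adjusted p = 0.0971). FLT3 was not called (0.05), and IL22RA1, IL20RA and TGFBR2 were at background. Of the measured cytokine receptors 37.5% were called, beside 34.3% of all genes. Among 27 of 50 adhesion and extravasation genes measured, 3 were higher and 2 lower (median 0.15), with 1 lower when control replicate 1 or Salmonella replicate 3 was left out, 6 higher without control replicate 3 and Salmonella replicate 1, and 0 lower among genes with a mean at or above background. F11R (2.28), a junction protein, ITGB3 (1.28) and ITGAL (0.79), integrin chains, were higher, the call of ADAM28 (-0.94) ended when control replicate 1 or Salmonella replicate 3 was left out (largest adjusted p = 0.0576), and MMP17 was at background. ADAM8 (0.0), MMP9 (0.03) and ADAM17 (-0.03) were not called, and TIMP3 was at background.

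**Figure D4:**
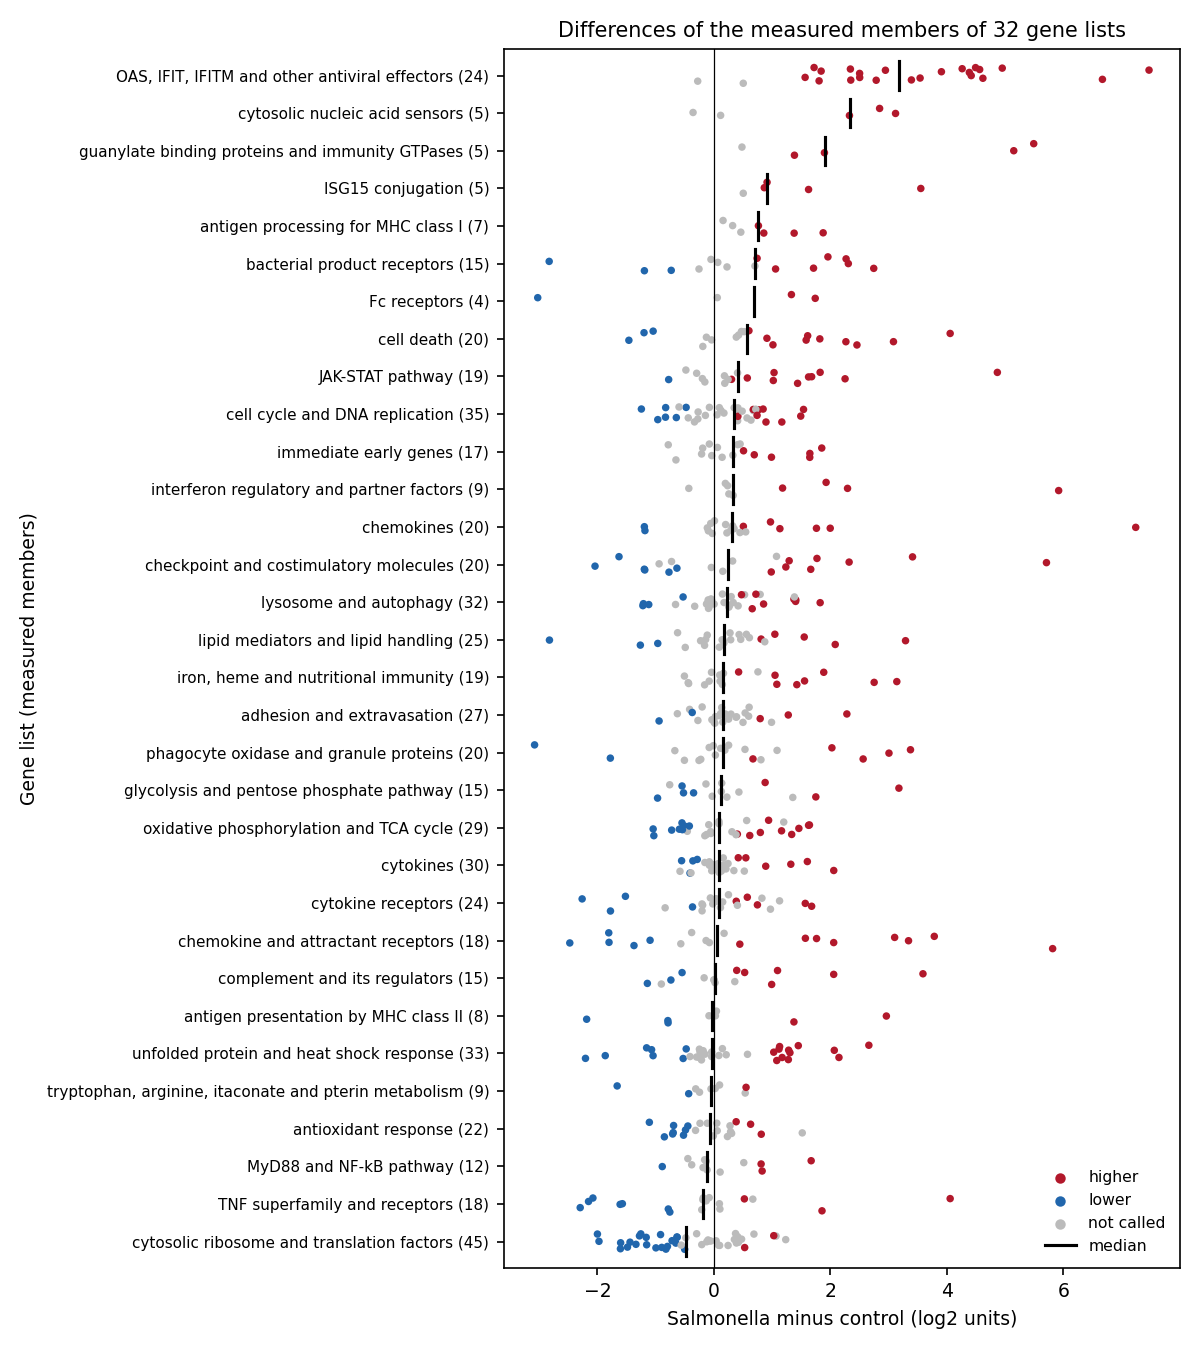
Difference (Salmonella minus control, log2 units) of each measured member of 32 gene lists, ordered by their median (black line), with members called higher in red, called lower in blue and not called in grey, and the number measured in brackets. Antiviral effectors have a median of 3.17 and ribosome and translation genes one of -0.48, while most other lists hold members on both sides of 0.

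The metallothionein genes MT2A and MT1A were higher. MT2A, a metallothionein that holds zinc and copper, was at 10.47, 9.50, 9.80 and 10.21 and at 12.44, 13.34, 13.17 and 13.58 (3.14 ± 0.27, adjusted p = 6.0e-05). MT1A, of the same family, was at 9.72, 8.88, 9.39 and 9.54 and at 11.63, 12.09, 12.25 and 12.56 (2.75 ± 0.23, adjusted p = 4.9e-05). The groups were more than 1 unit apart at their nearest values for both, and reads may be shared between these short near-identical genes. The pig gene tables lack the symbol MT2A. Of 19 of 41 genes of iron, heme and nutritional immunity measured, 8 were higher, 0 lower and 11 not called (median 0.16), with 5 higher when control replicate 1 or Salmonella replicate 3 was left out, and 1 lower when Salmonella replicate 4 was left out. FLVCR2 (1.89), a transporter first described for heme, STEAP4 (1.56), a metalloreductase, and SLC30A1 (1.05), a zinc exporter, were higher. LCN2 (-0.08) and LTF (-0.51), which bind bacterial siderophores and iron, were not called, and HAMP and SLC39A8 were at background. SLC11A1 was not analysed here.

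Genes of glycolysis went in both directions. PFKFB3, which makes the activator of phosphofructokinase, was at 9.19, 9.23, 8.93 and 9.59 and at 10.30, 11.29, 11.20 and 11.15 (1.75 ± 0.23, adjusted p = 6.3e-04). ADM, a vasodilator peptide gene listed with the hypoxia response, was at 8.02, 8.83, 8.0 and 9.46 and at 11.49, 12.13, 11.996 and 11.40 (3.18 ± 0.33, adjusted p = 1.5e-04). SLC2A1, the glucose transporter GLUT1, went the other way, at 8.60, 8.30, 8.36 and 8.42 and at 7.53, 7.63, 7.49 and 7.17 (-0.97 ± 0.15, adjusted p = 0.00144). Of 15 of 42 listed genes measured, 3 were higher, 4 lower and 8 not called (median 0.13), with 2 lower when control replicate 1, 3 or 4 or Salmonella replicate 2 was left out, 2 lower without control replicate 3 and Salmonella replicate 1, and 1 lower with the replicate number as a block. PFKFB4 was higher with groups that overlapped (0.88 ± 0.23, adjusted p = 0.0174), and GAPDH was called lower (-0.55) but not when control replicate 1 was left out (largest adjusted p = 0.0507). ENO1 (-0.03), TKT (0.13), RPIA (0.13) and PGLS (-0.14) were not called. ACTB, another gene often used as a reference, was higher, at 12.56, 12.78, 12.44 and 12.73 and at 13.13, 13.39, 13.46 and 13.30 (0.69 ± 0.12, adjusted p = 0.00267).

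In oxidative phosphorylation and the TCA cycle, 29 of 90 listed genes were measured and 9 were higher, 8 lower and 12 not called (median 0.09), which turned to 8 higher and 10 lower after centring and was 5 higher when control replicate 4 was left out, and 4 lower when control replicate 1 was left out. NDUFAB1 (1.64), a mitochondrial acyl carrier protein in complex I, DLD (1.46), NDUFA4 (0.94), IDH2 (0.80) and CYC1 (0.62) were higher. CYCS (-1.04), cytochrome c, NDUFB11 (-1.03), NDUFS5 (-0.72) and UQCRQ (-0.42) were lower. The calls of NDUFA8 (-0.55) and NDUFV1 (-0.50) both ended when control replicate 1 or 2 or Salmonella replicate 3 was left out (largest adjusted p = 0.0594), the second with adjusted p up to 0.0567, that of COX7C (-0.54) ended when control replicate 1 was left out (largest adjusted p = 0.053), and that of IDH3G (-0.59) when control replicate 1 or 4 was left out (largest adjusted p = 0.0565). SDHB (-0.06), COX5A (-0.09), COX5B (-0.05) and UQCRFS1 (0.09) were not called. Among genes of tryptophan, arginine, itaconate and pterin metabolism, 9 of 30 were measured and 1 was higher, 2 lower and 6 not called (median -0.05), with 0 higher when control replicate 1, 2, 3 or 4 or Salmonella replicate 4 was left out, and 1 lower when control replicate 1, 2, 3 or 4 or Salmonella replicate 2 or 4 was left out. SPR was at background, and PTS (0.02), GLUL (-0.05) and SLC7A5 (-0.25) were not called. SLC7A11 was at background, and IDO1 was not analysed here.

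Of the lipid genes, 32% were called, beside 34.3% of all genes. PTGS2, the inducible cyclooxygenase, was at 4.38, 5.53, 5.57 and 5.64 and at 7.60, 6.99, 7.22 and 7.65 (2.08 ± 0.31, adjusted p = 0.00109). ABCA1, which exports cholesterol, was at 8.87, 9.38, 8.40 and 9.21 and at 10.22, 10.20, 10.91 and 10.74 (1.55 ± 0.24, adjusted p = 0.00149). APOL6, an apolipoprotein L gene induced by interferon gamma, was at 4.81, 4.47, 4.64 and 4.64 and at 7.01, 8.08, 8.15 and 8.48 (3.29 ± 0.30, adjusted p = 7.9e-05). All 3 were higher in each Salmonella library than in any control library. Of 25 of 59 listed genes measured, 5 were higher, 3 lower and 17 not called (median 0.17), with LTA4H (0.81), the enzyme that makes leukotriene B4, also higher. ALOX15 (-2.82) and PTGES2 (-0.96) were lower, and the call of HPGD (-1.26) ended when control replicate 1 or Salmonella replicate 2 was left out (largest adjusted p = 0.0535). PTGER4 (-0.14), HMGCS1 (0.09) and MYLIP (-0.16) were not called, and PLA2G4A was at background.

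Among lysosome and autophagy genes, 32 of 76 were measured and 8 were higher, 4 lower and 20 not called (median 0.22). CALCOCO2, the NDP52 receptor that brings cytosolic Salmonella to autophagosomes, was at 5.65, 6.05, 5.99 and 5.97 and at 7.79, 7.74, 7.72 and 7.71 (1.82 ± 0.16, adjusted p = 6.0e-05). ULK1, the kinase that starts autophagy, was at 10.14, 10.42, 9.90 and 10.42 and at 8.85, 9.0, 9.24 and 8.92 (-1.22 ± 0.16, adjusted p = 5.0e-04). Of the genes of the ATG8 and ATG12 conjugation steps, ATG3 (1.41) was higher and ATG12 (-1.21) lower. ATP6V1B2 (0.85), ATP6V0C (0.72) and ATP6V1G1 (0.66) of the proton pump that acidifies lysosomes were higher and ATP6AP1 (-0.53) was lower. CTSD (1.37) was higher and CTSW (-1.12), a cathepsin of cytotoxic cells, lower. ATG4A (0.0), ATP6V1E1 (-0.04) and CTSH (-0.08) were not called. Of the measured list 37.5% were called, beside 34.3% of all genes.

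Cell death genes gave more rises than falls. MCL1, a survival protein of the BCL2 family, was at 5.55, 6.39, 6.31 and 6.67 and at 8.77, 9.44, 9.51 and 9.54 (3.08 ± 0.27, adjusted p = 6.0e-05). PMAIP1, the NOXA protein that blocks MCL1, was at 3.70, 4.21, 4.04 and 3.67 and at 7.62, 6.31, 6.35 and 5.15 (2.46 ± 0.43, adjusted p = 0.00255). BCL2 was lower, at 9.18, 9.02, 9.71 and 9.03 and at 7.65, 7.85, 8.01 and 7.60 (-1.46 ± 0.19, adjusted p = 4.6e-04). The groups of the 3 genes did not overlap. Of 20 of 51 listed genes measured, 10 were higher, 3 lower and 7 not called (median 0.56), and 5 higher in a fit of genes with a mean at or above background alone, with rises also in TNFSF10 (4.06), RIPK2 (1.82), CASP10 (1.58) and CFLAR (0.91), an inhibitor of caspase 8, and falls in CASP2 (-1.20) and CYCS (-1.04). CASP6 was at background, and FADD (-0.04), TRADD (-0.13), FASLG (-0.19) and HTRA2 (0.47) were not called.

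Genes of the unfolded protein and heat shock response were called in both directions. HSPA6, a heat shock protein induced by stress, was at 7.28, 8.10, 7.65 and 8.69 and at 10.39, 10.66, 10.64 and 10.67 (2.66 ± 0.27, adjusted p = 1.3e-04). ERN1, the IRE1 sensor of unfolded protein in the endoplasmic reticulum, was at 8.71, 8.67, 8.92 and 9.03 and at 6.78, 7.19, 6.79 and 7.12 (-1.86 ± 0.16, adjusted p = 6.0e-05). Of 33 of 53 listed genes measured, 12 were higher, 7 lower and 14 not called (median -0.04). Higher were also the cytosolic and mitochondrial chaperones HSP90AA1 (1.28), DNAJA1 (1.28), HSPH1 (1.12) and HSPD1 (1.08), and EDEM2 (1.45) of protein degradation. Lower were XBP1 (-1.04), the factor that ERN1 activates by splicing, DDIT4 (-2.20), an inhibitor of mTOR, BAG3 (-1.15) and HSF2 (-1.07). The calls of HSPA5 (-0.53) and CCT2 (-0.48) ended, for HSPA5 when control replicate 1, 2 or 4 or Salmonella replicate 1 or 4 was left out (largest adjusted p = 0.0815) and for CCT2 when control replicate 1, 2 or 3 or Salmonella replicate 2 was left out (largest adjusted p = 0.0697). SEL1L (-0.04), DNAJC3 (-0.15) and DNAJA2 (0.09) were not called, and BAG2 was at background. In the antioxidant response 22 of 37 were measured and 3 were higher, 8 lower and 11 not called (median -0.06), with 4 lower when control replicate 3 was left out, and 5 lower when control replicate 1 or Salmonella replicate 1 or 4 was left out, 4 lower without control replicate 3 and Salmonella replicate 1, and 1 higher among genes with a mean at or above background. TXN (0.81), thioredoxin, was higher and its reductases TXNRD1 (-0.69) and TXNRD2 (-0.71) were lower, as were GPX4 (-1.11), which reduces lipid peroxides, and GSTP1 (-0.70). PRDX2 and GSR were at background, and PRDX5 (-0.01), PRDX4 (0.05), TXN2 (0.06) and GCLM (0.28) were not called.

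Many genes of ribosomal proteins and translation factors were lower. RPL4 (chromosome 1, 164476269 to 164481765) was at 13.47, 13.32, 13.27 and 13.36 in control and at 11.38, 11.24, 11.60 and 11.31 in Salmonella replicates 1 to 4 (-1.97 ± 0.11, adjusted p = 5.8e-06). EIF4B, which helps unwind mRNA for translation, was at 11.998, 11.97, 11.68 and 11.81 and at 10.21, 10.31, 10.48 and 10.04 (-1.60 ± 0.13, adjusted p = 4.7e-05). EIF3L, a subunit of initiation factor eIF3, was at 12.13, 12.40, 12.18 and 12.08 and at 10.67, 10.67, 11.10 and 10.60 (-1.44 ± 0.14, adjusted p = 1.2e-04). The 3 genes were lower in every Salmonella library than in any control library. Of 45 of 115 listed genes measured, 2 were higher, 21 lower and 22 not called (median -0.48), so that 46.7% were lower beside 18.5% of all genes. Lower were also RPL22 (-1.60), RPS23 (-1.48), RPL37 (-1.34), TPT1 (-1.28), RPLP0 (-1.15) and EIF3G (-0.82). EIF4EBP1 (1.03), an inhibitor of cap-dependent translation, was higher, and the call of RPLP2 (0.53) ended when control replicate 1 or 4 or Salmonella replicate 3 was left out (largest adjusted p = 0.0601). The list had 1 higher when control replicate 1 or 4 or Salmonella replicate 3 was left out, and 4 higher when Salmonella replicate 4 was left out. RPS3A (0.10), RPS19 (0.04), RPS21 (0.08) and EIF3J (-0.05) were not called. The ribosomal genes RPL23 (1.07) and RPLP1 (0.42) were high in Salmonella replicate 1, at 11.26 and 10.26. Ribosomal protein genes have many processed copies, so their values are uncertain where reads were split.

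Cell cycle genes showed no shared direction. Of 35 of 80 measured, 9 were higher, 6 lower and 20 not called (median 0.35), which turned to 7 higher and 7 lower after centring, 3 higher among genes with a mean at or above background, and 3 lower without control replicate 3 and Salmonella replicate 1. TYMS (1.54) and TK1 (1.17), enzymes of thymidine synthesis, CDT1 (1.49), which licenses replication origins, CCNE2 (0.84) and CCNB1 (0.77) were higher. CCND2 (-1.24), a cyclin of lymphocytes, DUT (-0.96) and UNG (-0.83) were lower, and the calls of MCM5 (-0.83) and RFC3 (-0.64) ended, for MCM5 when control replicate 1 or Salmonella replicate 3 was left out (largest adjusted p = 0.061) and for RFC3 when control replicate 1, 3 or 4 or Salmonella replicate 3 was left out (largest adjusted p = 0.0674). MCM2 (0.05), CDK2 (0.09), CDK4 (-0.08) and NUSAP1 (0.17) were not called, and KIF11 and CDKN2A were at background.

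Most measured markers of T, B and NK cells were lower and most of monocytes were higher. CD3E, a chain of the T cell receptor complex, was at 7.87, 7.87, 7.76 and 7.65 and at 6.89, 6.60, 7.17 and 6.08 (-1.10 ± 0.23, adjusted p = 0.00598). CD79A, a chain of the B cell receptor complex, was at 12.55, 11.69, 11.88 and 11.66 and at 9.55, 8.92, 9.09 and 9.12 (-2.78 ± 0.22, adjusted p = 3.6e-05). GZMK was at 12.25, 11.51, 12.31 and 12.11 and at 8.84, 9.71, 9.72 and 8.36 (-2.89 ± 0.32, adjusted p = 2.1e-04). All 3 were lower in each Salmonella library than in any control library. Of the T cell markers 24 of 45 were measured, 0 were higher, 18 lower and 6 not called (median -1.24), with falls also in CD27 (-2.08), CCR7 (-1.80), CD2 (-1.63), TRAT1 (-1.63), CD40LG (-1.57), BCL11B (-1.56), CD5 (-1.45), CD6 (-1.36), LEF1 (-1.31) and PRKCQ (-1.28). TBX21 (0.42) was not called, and CD3D, FOXP3 and RORA were at background. Of the B cell markers 10 of 30 were measured, 0 were higher, 7 lower and 3 not called (median -1.47), with CXCR5 (-2.47), POU2AF1 (-1.89), TNFRSF13C (-1.61) and CD72 (-1.34) lower, BACH2 (-0.72) not called, and BLNK and SPIB at background. MS4A1 was not analysed here. Of 5 of 15 plasma cell markers measured, 1 was higher, 2 lower and 2 not called (median 0.03). XBP1 (-1.04) and TNFRSF17 (-2.29) were lower, and IRF4 (0.33) was not called. CAV1 and SDC1 were at background, 1 of them called higher. The mean over these markers was lower in every Salmonella library than in any control library.

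Among markers of NK and cytotoxic cells 14 of 38 were measured, 0 were higher, 8 lower and 6 not called (median -1.11). KLRB1 (-2.09), CD244 (-2.04), IL2RB (-1.52), GZMA (-1.20), CTSW (-1.12) and HCST (-1.10) were lower beside GZMK, CST7 (-0.75) and FASLG (-0.19) were not called, and XCL1 and KLRK1 were at background. FCER1A of basophils and mast cells was at 11.90, 11.73, 11.10 and 11.60 and at 8.45, 8.67, 8.72 and 8.40 (-3.02 ± 0.18, adjusted p = 6.6e-06), with no overlap. Of the markers of basophils, mast cells and eosinophils 12 of 28 were measured, 0 were higher, 8 lower and 4 not called (median -1.08), with OLIG1 (-2.94), ALOX15 (-2.82), IL5RA (-1.77), CEBPE (-1.56), CPA3 (-1.26) and SMPD3 (-0.90) lower. RNASE3 (0.53) and GATA2 (-0.59) were not called, and EPX, HRH4 and PRG3 were at background. Of the dendritic cell markers 11 of 28 were measured, 0 were higher, 3 lower and 8 not called (median -0.24). CD1E (-2.18) and TCF4 (-1.40), a factor of plasmacytoid dendritic cells, were lower, FLT3 (0.05), CD1A (0.04) and AXL (-0.07) were not called, and XCR1 was at background.

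Of the monocyte markers 15 of 33 were measured, 12 were higher, 0 lower and 3 not called (median 1.57). MARCO, a scavenger receptor, was at 6.92, 7.02, 4.79 and 7.21 and at 8.90, 7.72, 9.04 and 9.60 (2.33 ± 0.56, adjusted p = 0.0114), with no overlap. CCR2 (3.10), CLEC7A (2.74), CYBB (2.56), TLR4 (2.27), LYZ (2.03), MS4A7 (1.68), CX3CR1 (1.57), MSR1 (1.15) and CEBPB (1.09) were also higher, S100A9 (-0.01) and VCAN (0.54) were not called, and MRC1 was at background. The mean over the measured monocyte markers ran from 8.11 to 8.50 in control and from 9.69 to 9.87 in Salmonella libraries, and that over the T cell markers from 7.78 to 8.15 and from 6.70 to 7.16. The B cell mean ran from 7.01 to 7.38 and from 5.60 to 5.97. These shifts run beside every list above that holds genes of monocytes or lymphocytes, and their part in those results was not tested.

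Single genes of neutrophils and red cells, cells that a PBMC preparation usually removes, were high in every library, while 2 of 15 measured neutrophil and 5 of 20 measured erythroid markers were at background in both groups. HBA2, an alpha globin of red cells whose symbol the pig gene tables lack, was at 13.76, 13.92, 13.80 and 13.76 and at 14.03, 13.95, 13.98 and 13.80, and PROK2, a neutrophil gene, at 10.63, 11.06, 10.70 and 11.74 and at 10.36, 11.69, 11.87 and 10.46. According to the labels the RNA came from a PAXgene kit, which is commonly used for whole blood, and how mononuclear cells were separated is not given in the sources used here. Of the neutrophil markers 15 of 38 were measured, 2 were higher, 0 lower and 13 not called (median 0.03), with S100A12 (3.37) and STEAP4 (1.56) higher and PROK2 (0.06), LCN2 (-0.08) and MMP9 (0.03) not called, and VNN3 at background. Their mean level ran from 6.76 to 7.66 in control and from 6.89 to 7.81 in Salmonella libraries, so that the groups overlapped. Of the erythroid markers 20 of 46 were measured, 7 were higher, 0 lower and 13 not called (median 0.39), with 3 higher when control replicate 1 or 4 or Salmonella replicate 3 was left out, and 1 lower when control replicate 1 was left out. ALAS2 (1.58), which starts heme synthesis in red cell precursors, and CA2 (1.57) were higher, and HBQ1 (0.11), TMOD1 (-0.004), XK (0.29), GATA1 (-0.16) and HBA2 (0.13) were not called. Of the platelet markers 15 of 30 were measured, 5 were higher, 0 lower and 10 not called (median 0.61), with 3 higher when control replicate 4 or Salmonella replicate 4 was left out. PPBP (1.13), ITGB3 (1.28) and MYL9 (1.12) were higher, MMRN1 (-0.08) and ALOX12 (0.46) were not called, and GP5 and PF4 were at background. Of the measured erythroid markers 35% and of the platelet markers 33.3% were called, all higher, beside 34.3% of all genes called and 15.9% called higher. HBB was not analysed here. The part of granulocytes, platelets and red cells in the results was not tested.

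**Figure D5:**
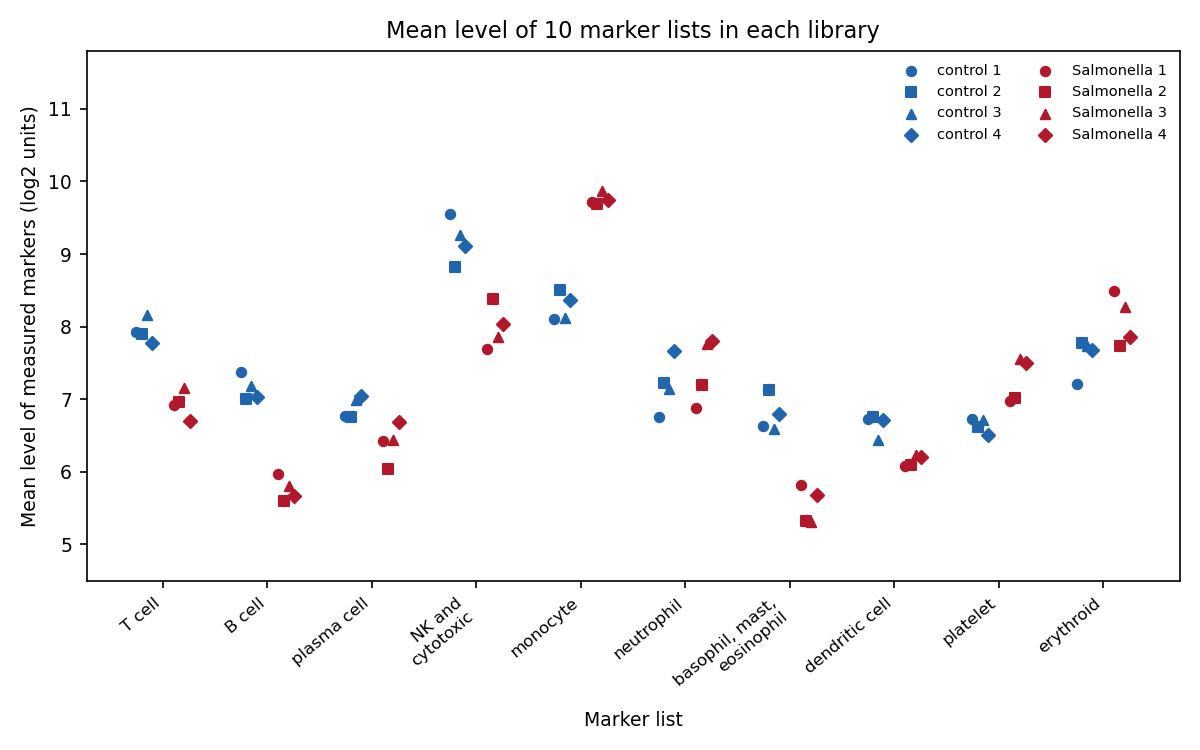
Mean level (log2 units) of the measured members of 10 marker lists in the control (blue) and Salmonella (red) libraries, with a circle, square, triangle and diamond for replicates 1 to 4. T, B, plasma, NK, basophil and dendritic cell means are lower in every Salmonella library, and monocyte and platelet means are higher. The neutrophil means of the groups overlap.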

How the data were processed

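Single reads of 50 bases were taken from Illumina TruSeq libraries, per the series labels, of RNA with an integrity number above 8, per the labels' protocols. The submitters' processing notes name Bowtie, the pig build Sscrofa11.1 and R 3.4.2. The values deposited by the authors are on a scale taken as log2, with the base, counting and normalization not given in the sources used here, and were used as deposited with no further scaling, pseudocount or filter. The 4 control and 4 Salmonella libraries were compared by group means with limma 3.58.1 (R 4.3.3), its variances moderated along the mean level, and p-values were adjusted by Benjamini-Hochberg over 7480 genes. Differences are given with their SE, means with SD. On simulated data with 200 of 7480 genes changed, 34.33%, 65.67% and 96.97% of changes of 0.5, 1 and 2 were recovered, and 2.24% of 134 calls were false. The simulated noise was drawn for each gene on its own, and far fewer genes changed than the 2568 called in the real data. These shares therefore do not carry over to the real calls.

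The genes and the 42 gene lists were chosen with earlier results of these data known, and lists are described by counts only. Named were the 15 largest rises and falls among called genes with groups that did not overlap, a higher mean of at least 1 above the silent 95th percentile, and a call and size (within 1.5 times) that held in every fit without 1 library. For each list up to 10 called members by p under the same conditions, up to 4 members with the largest p among those not called, and every member called against the list's main direction were added, with 20 fixed genes. Symbols were matched to the pig tables of Sscrofa11.1, from which coordinates come. Some listed genes are not reported here by name.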

Additional observations from a re-analysis of the deposited data

Results flagged for a closer look

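In 61 of 832 sets of 4 libraries (each named gene, in each group), 1 library stood far from the other 3, with a gap to the nearest of them above Dixon's 95% critical value as a share of the group's whole range. Chance gives about 1 in 20 such sets, and genes that vary together make the sets dependent. Control replicate 3 was that library 18 times and Salmonella replicate 1 15 times, against 2 to 7 times for each of the other 6 libraries. Values below are levels in log2 units of the library that stood apart.

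Control replicate 3 was the highest of its group for CASP6 (4.40), CXCL14 (5.48), GPR183 (5.40), IFNG (6.24), IL27 (4.74), LEF1 (11.44), OLFM4 (7.67), RORA (5.15) and RPLP1 (9.11), and the lowest of its group for ATP6AP1 (11.54), C1QC (4.15), CCL8 (5.05), CD74 (5.56), ENO1 (12.57), IL20RA (4.68), MARCO (4.79), TKT (10.92) and TXNRD1 (8.18). Salmonella replicate 1 was the highest of its group for PARP9 (10.63), SPNS3 (5.15) and TXNRD2 (8.21), and the lowest of its group for ASPRV1 (7.45), ATL3 (7.58), CD1A (5.84), CD274 (5.97), COX5A (11.45), DDX41 (7.82), HSPA6 (10.39), MCL1 (8.77), PFKFB3 (10.30), PTS (6.31), RTP4 (8.46) and TXNRD1 (7.61). Gaps of over 2 units in these 2 libraries were for OLFM4, a neutrophil granule gene, with control replicate 3 at 7.67 beside 4.54 to 4.84 in the other controls, for MARCO (4.79 beside 6.92 to 7.21), and for ASPRV1, with Salmonella replicate 1 at 7.45 beside 9.60 to 9.87 in the other treated libraries.

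Control replicate 1 was the highest of its group for CXCR5 (9.77) and PMEPA1 (7.33), and the lowest of its group for ATP6V0C (12.45), P2RY13 (4.46), PTGS2 (4.38), STAT5B (7.74) and XK (6.02). Control replicate 2 was the highest of its group for CYBB (9.23), FCN1 (13.57), S100A9 (13.83) and UBA7 (9.71). Control replicate 4 was the highest of its group for ATP6V1B2 (12.26), DUT (7.63), LY96 (10.75), MYL9 (4.58), PDIA3 (4.56) and ZBP1 (8.75), and the lowest of its group for TIMM10 (4.96). Salmonella replicate 2 was the highest of its group for CCNB1 (5.67), PDIA3 (5.03) and PRKCQ (8.09). Salmonella replicate 3 was the highest of its group for CCR7 (10.92), EIF3L (11.10), S100A9 (13.75) and TLR9 (5.32), and the lowest of its group for CCR10 (4.37). Salmonella replicate 4 was the highest of its group for TNFSF10 (13.46), and the lowest of its group for ERAP2 (7.63).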

How the results depend on the processing

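No named gene changed direction while called in any of the 17 alternative fits. Of the 277 named genes that were called, 228 were tested in all of these fits and 209 of them kept their call in each. Of all 416 named genes, 329 were tested in the fit of genes at or above the silent 95th percentile and 402 in that of symbols in the pig tables, and all in the others. Genes called higher and lower were 1175 and 1338 with all 12 libraries in 1 fit, 1085 and 1301 with no trend of the variance, 970 and 1862 with each library centred on its median, 1090 and 1543 after quantile normalization, and 1177 and 1381 with robust moderation. They were 832 and 1008 of 3654 genes with a mean at or above the silent 95th percentile, and 1163 and 1345 of 7146 symbols in the pig gene tables. Requiring a difference of at least 1 gave 570 and 475. With 1 library left out the counts ran from 876 to 1220 higher and from 1095 to 1286 lower. Deviations of same-numbered libraries from their group means correlated at -0.36, -0.0109, -0.0859 and 0.377, and those of control replicate 3 with Salmonella replicate 1 at 0.501. The labels do not tie a library to an animal, and so few correlations cannot settle whether the replicate numbers pair the libraries. With a replicate block 1013 were higher and 1083 lower. The fit without control replicate 3 and Salmonella replicate 1 was chosen after seeing the data. There the calls of SMPD3 (adjusted p = 0.056) and UNG (adjusted p = 0.055) ended.

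Outside the fits without 1 library, list counts moved by more than 1.5 times and by at least 2 genes 23 times, and by more than 1.5 times but 1 gene in a further 28 cases. With all 12 libraries the 7 erythroid rises became 4. After centring the falls of phagocyte genes went from 2 to 4, those of cytokine receptors from 4 to 7 and those of dendritic cell markers from 3 to 5, and after quantile normalization those of phagocyte genes from 2 to 4. With the replicate block the erythroid rises became 4 and the 4 glycolysis falls 1. Only 1 of the 4 guanylate binding and immunity GTPase rises is among symbols in the pig tables. The fit of genes at or above the silent 95th percentile tests fewer genes. There rises went from 10 to 5 for cell death, 9 to 3 for the cell cycle, 6 to 3 for cytokines and for chemokines, 5 to 3 for cytokine receptors and 3 to 1 for the antioxidant response, and falls from 4 to 0 for cytokines, 3 to 1 for complement, and 2 to 0 for chemokines and for adhesion. Without control replicate 3 and Salmonella replicate 1, adhesion rises went from 3 to 6, and falls from 8 to 4 for the antioxidant response, 6 to 3 for the cell cycle, and 4 to 2 for cytokines and for glycolysis. The calls of FCN1 (adjusted p = 0.086), IL12A (adjusted p = 0.094) and SOCS7 (adjusted p = 0.091) ended with all 12 libraries in 1 fit, and that of ATP6V0C (adjusted p = 0.067) after quantile normalization. The background was 4.641 on average with olfactory receptor symbols alone. Depth is unknown, so no counting error is given, and a difference that misses the threshold does not show equal levels.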

Other observations

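Genes outside the lists moved as far as those in them. The ones below were chosen after their values were seen, among genes whose call held in every fit without 1 library. They are not a ranking by size, since some falls are under 2 in size while 45 called falls over all genes were of at least 2. Each value is a difference in log2 units, Salmonella minus control. Rises were TIMM10 (4.30), a chaperone of the mitochondrial intermembrane space, TGM2 (4.28), a transglutaminase, STX11 (4.11), a syntaxin of immune cells, RTP4 (3.97), an interferon-induced protein, ALDH1A1 (3.95), which makes retinoic acid, MTHFD2 (3.75), an enzyme of mitochondrial folate metabolism, and PIK3AP1 (3.81), an adaptor for PI3 kinase. TGM2 was at 4.73, 4.64, 5.25 and 4.80 in control and at 8.56, 9.61, 8.56 and 9.81 in Salmonella replicates 1 to 4, and MTHFD2 at 5.52, 6.26, 5.91 and 5.71 and at 9.72, 9.92, 9.52 and 9.26. Falls were FOXO1 (-1.91), a transcription factor of resting lymphocytes, SESN1 (-2.20), a stress-induced inhibitor of mTOR, IRS2 (-2.27), an insulin receptor substrate, PMEPA1 (-2.27), an inhibitor of TGF-beta signalling, and SGK1 (-2.08) and KLF9 (-1.81), genes known to respond to glucocorticoids. SGK1 was at 9.10, 9.92, 8.95 and 10.004 and at 7.69, 7.06, 7.47 and 7.43, and KLF9 at 10.46, 10.09, 10.29 and 10.35 and at 8.0, 8.77, 9.10 and 8.10. None of these 4 genes had groups that overlapped.

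Families grouped by the start of their symbol, also chosen after the data were seen, differed in their counts. Symbols of CD antigens gave 8 rises and 20 falls of 41 measured (median -0.62), zinc finger genes named ZNF 9 rises and 30 falls of 115 (median -0.11), and mitochondrial ribosomal proteins 6 rises and 13 falls of 41 (median -0.33). RAB small GTPases, which direct vesicle traffic, gave 14 rises and 6 falls of 39 (median 0.32). Over all genes 15.9% were called higher and 18.5% lower.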
